A study of Glycine max with 8 samples.

Results

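A set of 41 soybean loci was expressed in every wild-type library and far lower in every library from seedlings over-expressing GmSIN1. The loci were selected on exactly that pattern: a position on a numbered chromosome, at least 10 CPM (counts scaled to a library total of 1000000) in each of the 4 wild-type libraries, and a highest CPM among the 4 over-expression libraries of no more than the lowest wild-type CPM divided by 8. They are 41 of the 16511 chromosomal loci that reached 10 CPM in each wild-type library, or 0.248%, and 41 of 47268 loci listed in all. Since genotype values chose the loci, every difference between genotypes given for them is a description without a test.

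The over-expression seedlings (OE) are labelled as over-expressing GmSIN1, whose own level was not analysed here. The wild-type seedlings (WT) were the conventional line WEI6823, which has the wild-type GmSIN1 genotype. The parent line of the OE seedlings is not named here, and a difference between lines cannot be told apart from an effect of GmSIN1. The 4 groups were OE with 150 mM NaCl for 6 h, WT with 150 mM NaCl for 6 h, OE with mock treatment for 6 h and WT with mock treatment for 6 h, with 2 libraries each, numbered 1 and 2. All seedlings were 2 weeks old and grown in hydroponic culture, and each library was made from root RNA and leaf RNA in equal parts. Neither the promoter driving GmSIN1 nor the number of transformed lines or of plants per library is given in the sources used here. The p-values below therefore reflect library-to-library spread, which may be technical. The labelled organs were not checked against marker genes, because the files name loci by ID alone. In bulk RNA of this kind, fewer cells of a type and less RNA per cell cannot be told apart. Library totals lay between 5980170 and 7199775 counts, at which 1 count equals 0.139 to 0.167 CPM and 3 counts equal 0.417 to 0.502 CPM.

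GmSIN1 encodes a member of the NAC family, plant-specific transcription factors that bind DNA through a conserved N-terminal domain and of which many act in stress responses, development and senescence. Soybean descends from an ancient polyploid, so many of its genes exist as pairs of similar copies on different chromosomes, and families of similar genes often lie side by side on a chromosome. Reads that fit several copies equally well are divided among them by the quantification program as fractional counts. A locus that shares no reads with another locus therefore shows whole-number counts. Locus IDs could not be paired with gene names or protein products here, so the 41 loci are described by ID, position in the locus order, coding length, level and read sharing, and no function is given for any of them.

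The 41 loci were moderately to highly expressed in WT seedlings. Their mean WT level ran from 12.1 to 328 CPM with a median of 61.6 CPM, against a median of 28.7 CPM for all 16511 loci. In OE seedlings their mean levels ran from 0.322 to 17.8 CPM with a median of 2.32 CPM. Per coding length, the medians over the 41 loci were 2.66 FPKM (counts scaled to both coding length and library size) in OE and 73.0 FPKM in WT. The deposited counts of the 41 loci together made up 184 and 169 CPM in OE mock libraries 1 and 2, against 4042 and 4029 CPM in the WT mock libraries. With NaCl the sums were 212 and 174 CPM in OE and 3941 and 3898 CPM in WT. Each OE library thus held a small remainder of counts at these loci.

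Over the 4 OE libraries as a whole, all 41 loci kept a count above 0. Whether the lowest counts are reads of the locus itself or reads divided from a similar copy was not tested. Expressed as a share of WT, computed from counts and totals pooled over the 4 libraries of each genotype, the OE level ran from 0.373% to 10.3% with a median of 3.87%. It was under 2% at 6 loci, between 2% and 5% at 19, and 5% or more at 16. Only 1 locus had a count of 0 in any OE library, Glyma.04G238100 in OE mock library 1, where a count of 0 allows up to 0.458 CPM. Pooled over the 4 OE libraries, the counts behind one locus ran from 8.58 to 477, against 325 to 8784 over the 4 WT libraries, so the WT levels are far better determined than the OE remainders. The rule applied with the genotypes exchanged was met by 92 loci. How many loci reached 10 CPM in each OE library was not counted, so this number is given without a share.

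**Figure D1:**
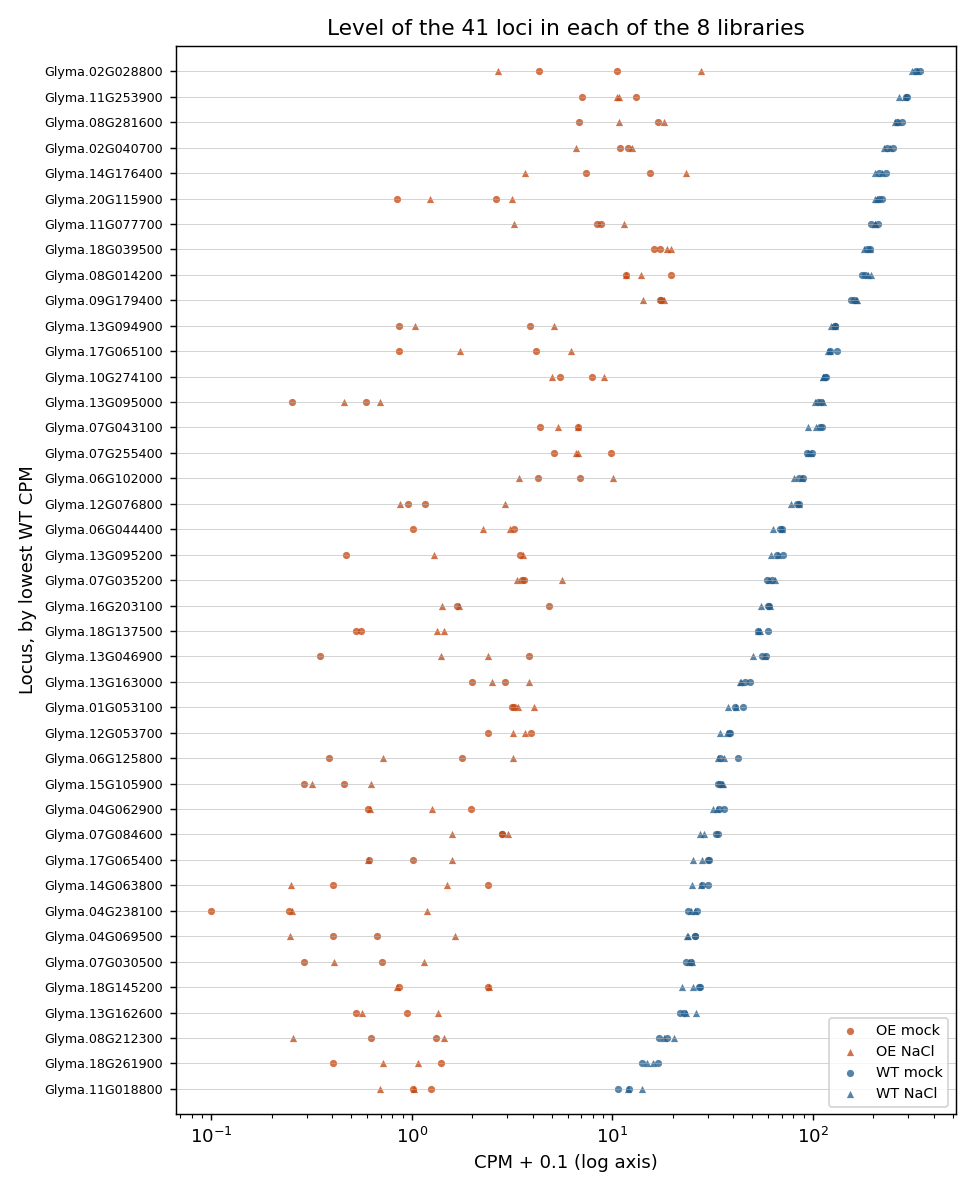
CPM plus 0.1 on a log axis for each of the 41 loci (rows, ordered by lowest WT level) in the 4 OE libraries (orange) and the 4 WT libraries (blue), with circles for mock and triangles for NaCl. By the rule that chose the loci every orange point lies left of every blue point in its row, the WT points lie close together, and the OE points of one locus are often spread over several-fold.

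The genotype contrasts of edgeR's quasi-likelihood test called all 41 loci lower in OE at an adjusted p under 0.05, in mock and in NaCl, where 4.72% and 4.27% of the 34023 loci tested were called lower. The rule used these same contrasts, so nothing follows from the count. It was 1 in mock without either WT mock library and 0 in NaCl without either WT NaCl library, fits in which 1 and 0 of all loci tested were called. The rule bears on these fits in the same way, so nothing follows from their counts either. The fitted log2 fold changes of the 41 loci had a median of -4.39 in mock and -4.63 in NaCl. Across the 16511 loci the median log2 ratio of the OE to the WT mean was itself -0.19 when scaled to library totals, -0.14 with TMM scaling and -0.10 with DESeq2's size factors, a shift that is small beside the fold limit of 8.

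The most abundant of the loci in WT was Glyma.02G028800 on chromosome 2 (coding length 1167 bases). It had 10.5 and 4.20 CPM in OE mock libraries 1 and 2 and 27.6 and 2.58 CPM in OE NaCl libraries 1 and 2, against 329 and 343 CPM in WT mock and 312 and 330 CPM in WT NaCl. Its WT libraries were nearly level, whereas both OE libraries numbered 1 stood above both numbered 2, and OE NaCl library 1 held more than any other OE library. Over all 4 libraries of a genotype it averaged 11.2 ± 11.4 CPM in OE and 328 ± 12.6 CPM in WT (SD, n = 4 each), or 3.41% of WT.

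Next came Glyma.11G253900 on chromosome 11 (831 bases), with 6.93 and 13.1 CPM in OE mock and 10.7 and 10.5 CPM in OE NaCl, against 296 and 291 CPM in WT mock and 289 and 269 CPM in WT NaCl. Here the OE libraries lay closer together than at Glyma.02G028800. Glyma.08G281600 on chromosome 8 (423 bases) had 6.72 and 16.9 CPM in OE mock and 10.7 and 17.9 CPM in OE NaCl, against 279 and 262 CPM in WT mock and 266 and 257 CPM in WT NaCl. Both OE libraries numbered 2 were the higher ones at this locus. Its counts were whole numbers in all 8 libraries, so it showed no divided reads. Per coding length it was the highest of the 41 loci in WT, with means of 32.5 FPKM in OE and 662 FPKM in WT.

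Glyma.02G040700 on chromosome 2 (954 bases) had 10.9 and 11.9 CPM in OE mock and 6.49 and 12.4 CPM in OE NaCl, against 235 and 251 CPM in WT mock and 243 and 228 CPM in WT NaCl. Only OE NaCl library 1 stood somewhat below the other OE libraries, and the OE remainder was 4.35% of WT.

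Glyma.20G115900 on chromosome 20 (447 bases) combined a high WT level with a very small remainder. It had 2.52 and 0.743 CPM in OE mock and 3.06 and 1.14 CPM in OE NaCl, against 214 and 221 CPM in WT mock and 209 and 203 CPM in WT NaCl. The lowest WT value was 66.4 times the highest OE value, and the OE remainder was 0.877% of WT, with an exact 95% interval of 0.655% to 1.17% that covers counting error only.

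The deepest loss was found at Glyma.13G095000 on chromosome 13 (864 bases). It had 0.153 and 0.490 CPM in OE mock and 0.597 and 0.360 CPM in OE NaCl, against 106 and 110 CPM in WT mock and 113 and 103 CPM in WT NaCl. These OE values stand for 1, 3.43, 4 and 2.33 counts per library, near the limit of what this depth resolves. The pooled remainder was 0.373% of WT with an exact 95% counting interval of 0.190% to 0.683%. The lowest WT library was 172 times the highest OE library.

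Another 4 loci kept less than 2% of their WT level. Glyma.15G105900 on chromosome 15 (1176 bases) averaged 0.322 ± 0.154 CPM in OE and 34.7 ± 0.955 CPM in WT (SD, n = 4 each), or 0.925% of WT. At Glyma.04G238100 on chromosome 4 (525 bases) the means were 0.348 ± 0.504 CPM in OE and 25.2 ± 1.18 CPM in WT, and 7.35 of its 9.34 OE counts lay in OE NaCl library 1. Glyma.18G137500 on chromosome 18 (963 bases) averaged 0.867 ± 0.491 CPM in OE and 55.1 ± 3.17 CPM in WT, and Glyma.12G076800 on chromosome 12 (2079 bases) 1.38 ± 0.975 CPM in OE and 82.9 ± 3.75 CPM in WT. At Glyma.18G137500 and Glyma.12G076800 the counts were whole within 0.025 in all libraries, and the remainders were 1.57% and 1.67% of WT.

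At the other end of the set, Glyma.09G179400 on chromosome 9 (894 bases) kept the largest share, 10.3% of WT. Its values were 17.2 and 17.3 CPM in OE mock and 18.1 and 14.1 CPM in OE NaCl, against 155 and 160 CPM in WT mock and 164 and 165 CPM in WT NaCl. Glyma.18G039500 on chromosome 18 (420 bases) followed with 9.53% of WT, at 17.8 ± 1.57 CPM in OE and 187 ± 6.11 CPM in WT (SD, n = 4 each). The OE libraries of both loci lay close together.

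The limit of 8 cut through a continuous range. Just inside it, the ratio of the lowest WT to the highest OE library was 8.09 at Glyma.06G102000, 8.58 at Glyma.09G179400 and 8.86 at Glyma.14G176400. Just outside it, the ratio was 7.98 at Glyma.13G002000, 7.88 at Glyma.20G204500 and 7.82 at Glyma.11G217200. The loci nearest to the WT minimum were Glyma.11G018800, Glyma.18G261900 and Glyma.08G212300, whose lowest WT libraries had 10.5, 13.9 and 16.9 CPM.

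Several of the loci belonged to a set of adjacent similar loci on chromosomes 13 and 17. On chromosome 13 the consecutive loci Glyma.13G094900, Glyma.13G095000, Glyma.13G095100 and Glyma.13G095200 were all lower in OE, and on chromosome 17 the consecutive loci Glyma.17G065000 to Glyma.17G065400 were. Of these 9 loci, 5 met the rule: Glyma.13G094900, Glyma.13G095000, Glyma.13G095200, Glyma.17G065100 and Glyma.17G065400. Apart from Glyma.13G095100 (348 bases), the coding lengths were 858 to 882 bases.

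At Glyma.13G094900 there were 0.763 and 3.78 CPM in OE mock and 0.941 and 5.03 CPM in OE NaCl, against 129 and 129 CPM in WT mock and 124 and 129 CPM in WT NaCl. At Glyma.17G065100 there were 0.763 and 4.08 CPM in OE mock and 1.64 and 6.13 CPM in OE NaCl, against 132 and 122 CPM in WT mock and 118 and 122 CPM in WT NaCl. The 2 loci thus had nearly the same WT level, and at both the OE libraries numbered 2 held the larger remainder. Glyma.13G095200 had the same order of OE libraries, with 0.368 and 3.35 CPM in OE mock and 1.20 and 3.47 CPM in OE NaCl, against 70.9 and 66.4 CPM in WT mock and 66.8 and 61.7 CPM in WT NaCl. Glyma.17G065400 had the opposite order, with 0.916 and 0.510 CPM in OE mock and 1.49 and 0.504 CPM in OE NaCl, against 29.8 and 30.1 CPM in WT mock and 25.1 and 28.1 CPM in WT NaCl.

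The 4 loci of these runs that did not meet the rule were low in OE as well. Means were 5.65 CPM in OE and 63.4 CPM in WT at Glyma.17G065000, 5.26 CPM in OE and 53.0 CPM in WT at Glyma.17G065200, and 3.10 CPM in OE and 40.8 CPM in WT at Glyma.17G065300. These 3 had remainders of 8.91%, 9.94% and 7.62% of WT. At Glyma.17G065000 and Glyma.17G065200 both OE libraries numbered 2 exceeded the limit, with 8.04 CPM in mock and 8.24 CPM in NaCl at each locus. At Glyma.17G065300 only OE NaCl library 1 did, with 5.41 CPM. Glyma.13G095100 was at 0.328 CPM in OE and 3.56 CPM in WT, under the WT minimum.

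Reads were divided among these loci. The fractional counts of the 9 loci added up to whole numbers within 0.02 in each of the 8 libraries, so their sum does not depend on how reads were assigned among them. The sum was 12.1 and 31.3 CPM in OE mock libraries 1 and 2 and 17.2 and 33.4 CPM in OE NaCl libraries 1 and 2. In WT it was 623 and 614 CPM in mock and 615 and 607 CPM in NaCl. The WT sums agreed closely, the OE libraries numbered 2 held larger sums than those numbered 1, and the 9 loci together stood at 3.83% of WT. Values of single copies within the set share reads and are not independent measurements.

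Loci bordering the runs had OE levels of 96.8% to 259% of WT. On chromosome 13 the preceding locus, Glyma.13G094800, averaged 85.5 ± 9.75 CPM in OE and 72.9 ± 3.42 CPM in WT (SD, n = 4 each), and the following locus, Glyma.13G095300, 3.07 CPM in OE and 1.20 CPM in WT. On chromosome 17 Glyma.17G064900 had means of 4.77 CPM in OE and 4.65 CPM in WT. Glyma.17G065500 had 102 ± 2.69 CPM in OE and 106 ± 3.87 CPM in WT (SD, n = 4 each). Glyma.13G095300 (882 bases) and Glyma.17G064900 (876 bases) resembled the run loci in coding length. Their fractional counts added together gave whole numbers in each of the 8 libraries, the pattern of loci that share reads. Neither was low in OE, so the runs were delimited by OE level and leave out loci of similar length that were not lost.

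**Figure D2:**
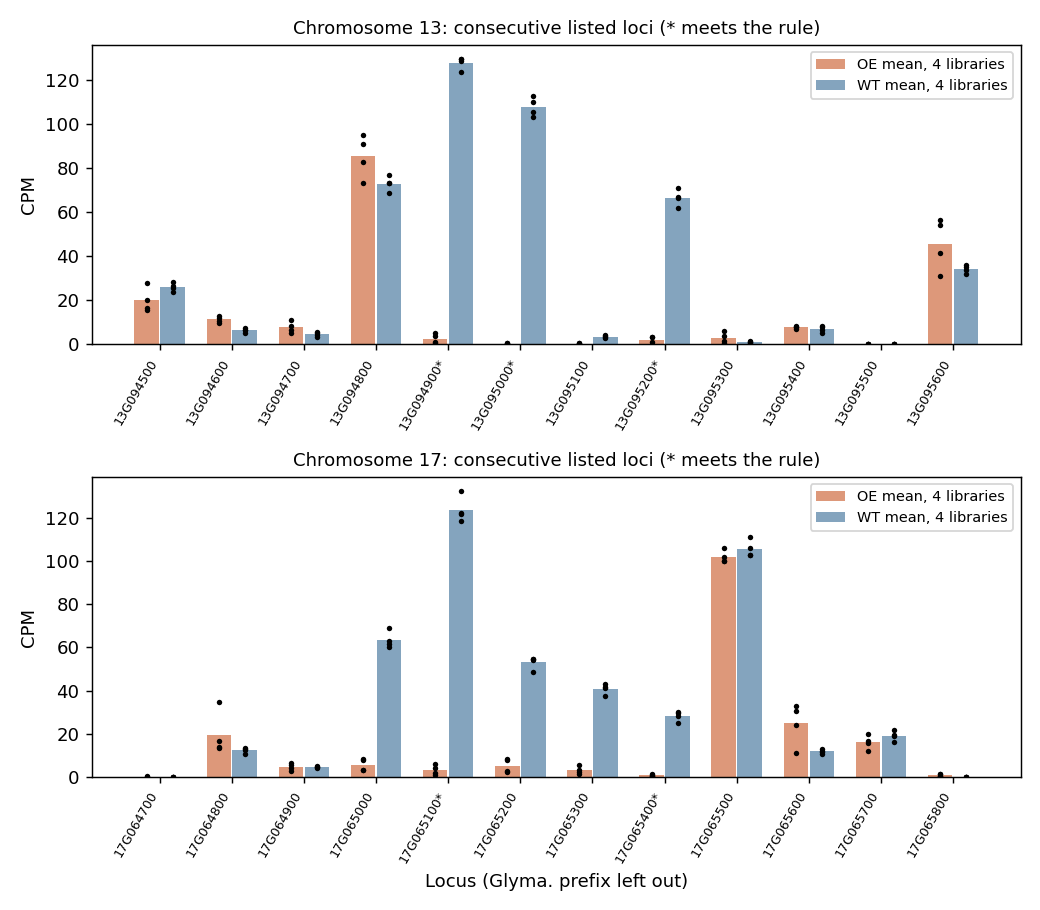
CPM of consecutive listed loci around the runs on chromosome 13 (top) and chromosome 17 (bottom), with bars for the mean of 4 libraries, OE left of WT, and points for single libraries; asterisks mark loci that met the rule. OE bars are close to 0 from Glyma.13G094900 to Glyma.13G095200 and from Glyma.17G065000 to Glyma.17G065400, while Glyma.13G094800 and Glyma.17G065500 on their borders are near their WT level.

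Read sharing was then used to find the loci most similar to the others. A partner was taken to be a locus whose fractional counts added to those of the first gave whole numbers within 0.025 in all 8 libraries, where the first had fractions in at least 4 libraries. This search was devised with the values already seen. Of the 41 loci, 31 had fractions in at least 4 libraries; 21 of these had exactly 1 partner and 10 had none, which can happen where more than 2 loci share reads. The 21 loci formed 17 pairs, each with its loci on 2 different chromosomes. The coding lengths, which the search did not use, differed by at most 60 bases within 15 of the 17 pairs. In 4 pairs both copies were among the 41 loci, and in 13 the partner was not.

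The 4 pairs with both copies in the set were Glyma.04G238100 with Glyma.06G125800, Glyma.07G030500 with Glyma.08G212300, Glyma.10G274100 with Glyma.20G115900, and Glyma.13G095000 with Glyma.17G065100. Summed over both copies, which removes the effect of dividing the reads, the level in OE was 2.85%, 3.16%, 2.66% and 1.54% of WT, in that order of pairs. Within the pair of Glyma.10G274100 and Glyma.20G115900 the remainders were unlike, at 5.99% of WT for Glyma.10G274100 and 0.877% for Glyma.20G115900. Glyma.10G274100 (462 bases) had 7.86 and 5.40 CPM in OE mock and 9.02 and 4.89 CPM in OE NaCl, against 116 and 114 CPM in WT mock and 112 and 112 CPM in WT NaCl. In OE it was the more abundant copy and in WT the less abundant one. The order of the OE libraries was the same at both copies, those numbered 1 being higher in mock and in NaCl.

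The 13 partners outside the set, which were not selected on their own level, were in most cases low in OE too. Their OE level ran from 8.66% to 64.1% of WT with a median of 18.9%. It was below 50% of WT at 12 of the 13 and below 25% at 9, where 405 (2.45%) of all 16511 loci were below 25%. For scale, 9193 of the 16511 loci had exactly 1 partner by the same search. The partners of those loci had a median of 88.9% of WT, and 964 of them (10.5%) lay below 50%. No test was made of this difference, because a partner divides its reads with the selected copy and the values of the 2 are tied by that division.

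Among these partners, Glyma.11G217200 on chromosome 11 (414 bases), the partner of Glyma.18G039500, had 15.0 and 24.7 CPM in OE mock and 24.6 and 25.6 CPM in OE NaCl, against 200.5 and 208 CPM in WT mock and 205 and 203 CPM in WT NaCl. It stood at 11.0% of WT and is also the locus with the ratio of 7.82 just outside the limit. Glyma.05G207500 on chromosome 5 (1341 bases), the partner of Glyma.08G014200, had 44.3 and 45.0 CPM in OE mock and 47.2 and 44.7 CPM in OE NaCl, against 214 and 224 CPM in WT mock and 234 and 236 CPM in WT NaCl. This copy kept 19.9% of its WT level, whereas Glyma.08G014200 kept 7.59%. The exception was Glyma.09G192300 on chromosome 9 (945 bases), the partner of Glyma.07G084600, with 4.0 and 10.3 CPM in OE mock and 2.83 and 8.23 CPM in OE NaCl, against 12.2 and 11.3 CPM in WT mock and 9.39 and 7.18 CPM in WT NaCl. Its OE and WT libraries overlapped.

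In 10 of the 13 pairs with a partner outside the set, the selected locus was the more abundant one in WT. Glyma.11G077700 averaged 7.85 CPM in OE and 204 CPM in WT, while its partner Glyma.01G165600 averaged 1.16 CPM in OE and 12.7 CPM in WT. Glyma.14G176400 averaged 12.3 CPM in OE and 218 CPM in WT, while its partner Glyma.02G208200 averaged 5.29 CPM in OE and 24.7 CPM in WT. In neither pair was the partner higher in OE, and the sums of both loci were 4.15% and 7.28% of WT. Over all 17 pairs the summed OE level ran from 1.54% to 21.9% of WT with a median of 7.28%.

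**Figure D3:**
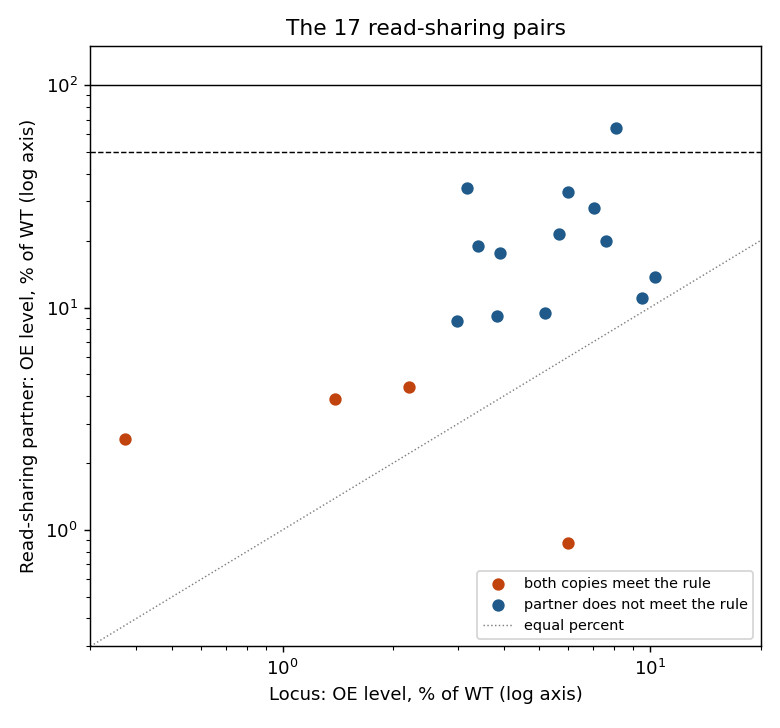
OE level as a percentage of the WT level for each of the 17 read-sharing pairs, the selected locus on the x axis and its partner on the y axis, both on log axes; orange points have both copies in the set, the dashed line marks 50% and the solid line 100%. Of the 13 blue points 12 lie below 50%, 1 lies at 64.1%, and none reaches 100%.

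The 41 loci lay on 17 of the 20 chromosomes, with none on chromosomes 3, 5 and 19. Chromosome 13 held 6 of them, or 14.6%, against 7.23% of the 16511 loci, and chromosome 7 held 5. Only 1 pair, Glyma.13G094900 and Glyma.13G095000, consisted of directly neighbouring loci. Among the 3 listed loci on each side of a selected locus, 96 loci outside the set reached 10 CPM in each WT library. Their OE level had a median of 75.9% of WT, against 87.2% for all 16511 loci.

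Of these 96 flanking loci, 19 (19.8%) were below 50% of WT, against 1926 (11.7%) of all 16511 loci, and 9 (9.38%) were below 25%, against 405 (2.45%). The 9 lay beside 7 of the selected loci, and 3 of them were the loci of the chromosome 17 run. Of the others, Glyma.14G176300 (942 bases), next to Glyma.14G176400 (945 bases), averaged 11.6 CPM in OE and 168 CPM in WT, or 6.89% of WT. Glyma.02G028400 (351 bases), the third locus before Glyma.02G028800, averaged 6.32 CPM in OE and 50.2 CPM in WT, or 12.5% of WT. These flanking loci were not tested as a group, and neighbouring copies can divide reads.

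The coding sequences of the 41 loci were short, with a median of 915 bases and a range of 267 to 3090 bases, against a median of 1347 bases for the 16511 loci. Coding lengths under 500 bases were found at 9 loci (22.0%), against 7.95% of all 16511. A single gene model was listed for 33 loci (80.5%), against 59.9%. Counts were whole within 0.025 in all 8 libraries at 9 loci (22.0%), against 8.29%. These 9 were Glyma.06G044400, Glyma.07G035200, Glyma.08G281600, Glyma.11G018800, Glyma.12G053700, Glyma.12G076800, Glyma.14G063800, Glyma.18G137500 and Glyma.18G145200, none of which showed divided reads. Their OE remainders ran from the 1.57% of Glyma.18G137500 to the 8.59% of Glyma.12G053700. The shares with whole counts are not strictly comparable, because the rule keeps OE counts low and few counts are more readily whole.

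The OE remainders differed between libraries far more than the WT levels did. The median absolute difference between libraries 1 and 2 on the log2(CPM + 1) scale was 0.54 in OE mock and 0.64 in OE NaCl, against 0.070 in WT mock and 0.095 in WT NaCl. Counts as low as those in OE carry a large counting error. The order of the 2 OE libraries was often repeated across treatments: library 1 was above library 2 in both treatments at 20 loci, library 2 above library 1 in both at 12, and the order differed at 9. Over 18479 loci of the whole series, the deviations of the OE libraries from their group means correlated across treatments with r = 0.77 by library number, a value across genes, which are not independent replicates. The corresponding value in WT was 0.022. The labels do not say what OE libraries of one number share.

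Single loci showed both orders. Glyma.14G063800 on chromosome 14 (480 bases) had 2 and 16 counts in OE mock libraries 1 and 2 and 1 and 9 counts in OE NaCl libraries 1 and 2, which made 0.305 and 2.29 CPM and 0.149 and 1.39 CPM, against 24.9 to 29.8 CPM in the WT libraries. Library 2 was the higher one in both treatments. Glyma.18G145200 on chromosome 18 (372 bases) had 0.763 and 2.29 CPM in OE mock and 0.746 and 2.32 CPM in OE NaCl, against 22.1 to 27.4 CPM in WT, again with library 2 higher. At Glyma.14G176400 the order was reversed, with 15.3 and 7.29 CPM in OE mock and 23.1 and 3.56 CPM in OE NaCl, against 231 and 213 CPM in WT mock and 221 and 205 CPM in WT NaCl. A single mean over the 4 OE libraries hides these differences.

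**Figure D4:**
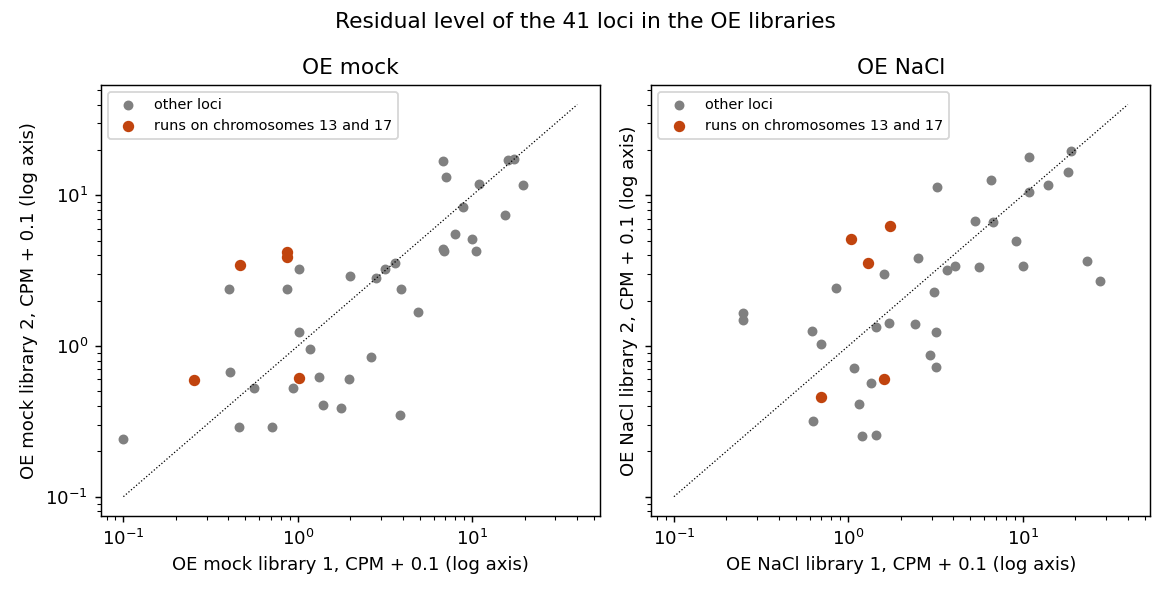
CPM plus 0.1 of the 41 loci in OE library 1 (x axis) and OE library 2 (y axis) for mock (left) and NaCl (right), all axes logarithmic; orange points are the 5 loci of the runs on chromosomes 13 and 17 and the dotted line marks equal levels. Points lie on both sides of the line in both treatments, and 3 of the orange points lie above it in both.

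Salt was not part of the rule, although the rule capped the OE values in both treatments, and its effect on the 41 loci was tested with edgeR over all 34023 loci. In WT seedlings none of the 41 loci passed an adjusted p of 0.05 for NaCl against mock, where 0% of all loci tested were called. An unadjusted p under 0.05 was found at 0 of them, against 111 of all 34023 loci. The log2 fold changes of the 41 loci lay between -0.25 and 0.19, 12 being positive and 29 negative. Their median was -0.049, against -0.0011 over all loci. DESeq2 and limma-voom called 0 as well. An unadjusted p under 0.05 was found at 0 of the 41 with each, against 29 and 76 of all 34023 loci. These fits took the spread of a locus from all 8 libraries, and OE libraries of a group differed more than WT libraries did. Small salt effects in WT could therefore be missed. With edgeR on the 4 WT libraries alone, 15 of 30986 loci were called, and 0 of the 41. An unadjusted p under 0.05 was then found at 2 of the 41, against 2037 of all loci tested. The summed WT level given above was slightly lower with NaCl, at 3941 and 3898 CPM against 4042 and 4029 CPM with mock.

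In OE seedlings 0 of the 41 loci were called for NaCl against mock, where again 0% of all loci tested were, and DESeq2 and limma-voom called 0. An unadjusted p under 0.05 was found at 3 of the 41 loci with edgeR, 1 with DESeq2 and 0 with limma-voom, against 507, 201 and 558 of all 34023 loci with these tools. Log2 fold changes ran from -1.07 to 2.68 with a median of 0.16, 26 being positive and 15 negative. Of the 3 loci, Glyma.18G137500 had 9 and 8 counts in OE NaCl against 3 and 3 in OE mock, with a log2 fold change of 1.44 (SE 0.29, edgeR adjusted p = 1). Glyma.04G238100 had 7.35 and 0.990 counts in OE NaCl against 0 and 1 in OE mock, with a fitted log2 fold change of 2.68 (SE 1.10, edgeR adjusted p = 1). Leaving out OE mock library 1 gave 1.82, leaving out OE mock library 2 gave 5.05, and leaving out OE NaCl library 1 gave 0.92. Glyma.16G203100 had 10.9 and 8.53 counts in OE NaCl against 31.2 and 11 in OE mock, with a log2 fold change of -1.07 (SE 0.45, edgeR adjusted p = 1). Leaving out OE mock library 1, which holds most of its OE mock counts, gave -0.19, and leaving out OE mock library 2 gave -1.59. None of the 3 is a called change, and the values rest on few reads.

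The salt effect was not shown to differ between genotypes at any of the 41 loci. The interaction called 0 of them, where 0% of all loci tested were called, and 0 were called with DESeq2 and limma-voom. Of all 34023 loci, 231 had an unadjusted p under 0.05 with edgeR, 63 with DESeq2 and 192 with limma-voom. Among the 41 it was found at 1 locus with edgeR and at 0 with DESeq2 and limma-voom. That locus was Glyma.18G137500, with an interaction of 1.51 on the log2 scale (SE 0.34, edgeR adjusted p rounding to 1). At these OE counts only large salt effects could be seen, and a p that misses the threshold does not show that salt left the loci unchanged. Leaving out OE NaCl library 2 produced 1 call for NaCl against mock in OE, at Glyma.11G077700 with a log2 fold change of -1.58 (edgeR adjusted p = 0.0475) in a fit that lends the lone OE NaCl library the spread of the other groups. That fit called 218 of all 35161 loci tested, of which 209 were lower with NaCl. With all libraries its value was -0.26, since OE NaCl libraries 1 and 2 had 3.13 and 11.3 CPM against 8.70 and 8.27 CPM in OE mock, and the OE NaCl library that decides the call is the one left out.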

How the data were processed

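Polyadenylated transcripts were measured by RNA-seq in 8 libraries. The deposited files give an expected count, an FPKM value and a length for each gene model, per the file headers, and the values were made with RSEM, per the submitters' processing notes. No RSEM version, aligner, genome build or annotation is given in the sources used here. All lengths are multiples of 3 and are called coding lengths. The lengths and FPKM deposited by the authors served for description and for 1 alternative.

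Expected counts of the 74813 models were summed per locus, a model not listed being set to 0, divided by the file total for CPM, and rounded to whole numbers for tests. Loci were tested with edgeR 4.0.16 in R 4.3.3 (filterByExpr, TMM, glmQLFit and glmQLFTest, 1 coefficient per group, 4 residual degrees of freedom, Benjamini-Hochberg adjustment over all loci tested, threshold 0.05). Standard errors came from the quasi-likelihood F statistic. DESeq2 1.42.0, limma-voom (limma 3.58.1), other scalings and filters, gene models as units, a replicate block, fits of 4 libraries and each library left out were alternatives. Fits were tested on simulated counts.

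The members and lists were chosen with earlier results of these data known. Loci named are the 12 with the highest WT level, the 10 with the largest ratio of lowest WT to highest OE library, directly neighbouring loci, those nearest the limits and any passing a salt test; others were named after their values were seen, for read sharing, position or OE library order. Read-sharing partners, neighbours and their summaries were devised after the data were seen. Counting intervals are exact (binomial, conditional on the summed counts) and, like floors of 3 counts, cover counting error only. The reference gene table matched 0 of the 41 loci, so the planned function groups, closest proteins and GmSIN1's own level were not analysed here. The chi-square between the 2 libraries of a group, divided by its degrees of freedom, was 27.9 in OE mock, 1.38 in WT mock, 46.7 in OE NaCl and 1.35 in WT NaCl. Each exceeds sampling noise, and no libraries were merged for the tests. The OE levels as a percentage of WT and their counting intervals do pool the 4 libraries of a genotype, and the intervals leave this spread out.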

Additional observations from a re-analysis of the deposited data

How the results depend on the processing

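The number of loci meeting the rule was 180 with a fold limit of 4, 17 with a fold limit of 16, and 8 or 9 when only loci with whole counts within 0.01 or 0.025 were kept. The other settings of the rule gave 38 to 45 loci, and leaving out 1 library gave 41 to 53. With 1 library fewer the number could not fall below 41, because a locus that met the rule still meets it. Calls of these loci in the genotype contrasts numbered 1 to 41 in mock when 1 library was left out, being 1 without either WT mock library, where 1 of all loci tested was called. In NaCl they numbered 0 to 41, being 0 without either WT NaCl library, where 0 of all loci were called, and 24 when only the 4 NaCl libraries were fitted, where 75 of all 32158 loci were called lower. The rule used the genotype contrasts, so nothing follows from these numbers of calls. Without any 1 WT library the ratio of each locus moved by less than the spread of the OE libraries. Salt calls in OE numbered 0 to 1 when 1 library was left out, and 0 under every other alternative run; fitting the 4 OE libraries alone tested only 27 of the 41 loci. Salt calls in WT and the interaction stayed at 0 in all alternatives run. Labels give no shared source for libraries of equal number, so the numbers were not taken as pairs. With the replicate block the calls were 41 in mock, 41 in NaCl, and 0 for salt in WT, salt in OE and the interaction. That block fits the same replicate effect for both genotypes, whereas deviations correlated by library number in OE (r = 0.77) and hardly in WT (0.022). It therefore cannot fully absorb a difference present in OE alone, and a pairing within OE was not tested. Of the 451 alternative values of single loci's log2 OE to WT ratio, 438 moved by less than the spread of the OE libraries and 13 by more. The range was -8.33 to -3.18, and 0 changed sign. Under the fold limit of 8, leaving out a library could not have changed a sign. Partners outside the set numbered 14 with a tolerance of 0.015 and 11 with fractions in 6 libraries, of which 12 and 10 were below 50% of WT. Depth limits the OE remainders, which at the lowest loci rest on 8.58 to 9.34 counts over 4 libraries.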

Other observations

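Next to a lost locus on chromosome 12 lay a run of loci with the opposite pattern, noticed after the values were seen. Glyma.12G053700 (432 bases, whole counts in all libraries) averaged 3.19 ± 0.676 CPM in OE and 37.1 ± 1.85 CPM in WT (SD, n = 4 each). The 5 loci that follow it, Glyma.12G053800 to Glyma.12G054200, have similar coding lengths of 1545 to 1575 bases. They averaged 15.4, 14.7, 5.99, 3.66 and 10.6 CPM in OE and at most 0.358 CPM in WT. The run was delimited by level. Further on, Glyma.12G054400 (1551 bases) averaged 9.48 CPM in OE and 8.74 CPM in WT, and Glyma.12G054500 (1554 bases) 5.47 CPM in OE and 24.5 CPM in WT. Within the run, OE mock libraries 1 and 2 had 0.153 and 11.1 CPM at Glyma.12G054000 and 1.09 and 16.4 CPM at Glyma.12G054200. Glyma.12G053800 was present in every OE library, with 9.46 and 16.6 CPM in OE mock and 19.4 and 16.2 CPM in OE NaCl, against 0.334 and 0.293 CPM in WT mock and 0.417 and 0.386 CPM in WT NaCl. Glyma.12G053900 was uneven between OE libraries, with 1.76 and 24.4 CPM in OE mock and 1.49 and 31.0 CPM in OE NaCl, and had 0 counts in all WT libraries. Glyma.06G102300, the third locus after Glyma.06G102000, also had 0 counts in WT and 0.916 and 35.9 CPM in OE mock and 1.64 and 32.6 CPM in OE NaCl.

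Loci under 1 CPM in WT and at 10 CPM or more in OE on average made up 3 of the 228 loci flanking the 41 (1.32%), against 270 of 46955 chromosomal loci (0.575%). No test was made of this.

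Gene models of one locus were not always lost alike, though few OE reads bear on this. Model Glyma.07G255400.1 held 0 counts over the 4 OE libraries and 369 over the 4 WT libraries, while models Glyma.07G255400.2 and Glyma.07G255400.3 each had 69.8 counts in OE and 633 in WT. Model Glyma.12G076800.5 was estimated at 5.38 counts in OE and 0 in WT, where each of the locus's other models had more counts in WT than in OE. Expected counts of overlapping models are estimates, and their division was not tested.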
